A study of Mus musculus with 9 samples.

Results

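RNA from the medial prefrontal cortex of stressed mice lacking Fkbp5 was compared with that of unstressed wild-type mice, 6 of the 9 mice that were sequenced, each mouse being placed by its label. The control group (CT) held 3 wild-type mice that were not stressed, and KO_ST held 3 Fkbp5-/- mice that underwent daily restraint, 6 h each time, during 3 weeks. All were male and, by the labels, C57BL/6 and 11 weeks old, the substrain being C57BL/6J in the study's methods. The deletion was constitutive, and the line had been backcrossed to that substrain for 10 generations and kept by heterozygous matings. Genotype and stress both differ between CT and KO_ST, so a difference between these groups cannot be assigned to either, and unstressed Fkbp5-/- mice were not analysed here. The 3 restrained wild-type mice (WT_ST) are given beside the results. They are not an independent series, because each comparison with CT uses the same CT mice.

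FKBP51, the protein made from Fkbp5, is a co-chaperone that sits with HSP90 on the glucocorticoid receptor and lowers the receptor's affinity for hormone. The receptor in turn activates Fkbp5, which closes a short feedback loop. In the prefrontal cortex, a region involved in the control of the stress axis, glucocorticoids act on neurons, astrocytes, microglia and vessels, so bulk RNA from this tissue mixes the responses of all these cells.

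Of 24532 listed genes, 14397 averaged at least 30 reads over the 6 mice and were tested. Each mouse gave one library, and depth ran from 43778471 to 61150128 counted reads. Differences are given as log2 differences of quantile-normalized log2(FPKM + 1), KO_ST minus CT, where FPKM is a read count scaled by the length of the transcript and the depth of the library. Because of the added 1, such a difference understates the change of a gene of low level. A gene is said to have risen or fallen when limma gave an unadjusted p under 0.05 and the fold exceeded 1.2, the criterion used throughout. By this criterion 516 genes passed, 3.58% of those tested. Of these, 224 rose (1.56%) and 292 fell (2.03%). With p-values adjusted by the Benjamini-Hochberg method 9 remained (0.0625%), so most calls below rest on the unadjusted criterion. The normalized values of CT and KO_ST did not overlap for 2281 genes (15.8%), among them 425 of the 516. Without quantile normalization the split of the calls moved from 224 up and 292 down to 151 up and 371 down. WT_ST against CT gave 1.15% of genes higher and 1.3% lower, and KO_ST against WT_ST 0.952% higher and 1.04% lower.

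Fkbp5 itself (chr17:28398753-28486149, GRCm38) was measured first as the check of the genotype. Its FPKM was 7.61, 6.46 and 7.28 in the CT mice and 3.59, 4.69 and 4.45 in the KO_ST mice. Every KO_ST mouse lay below every CT mouse, with a log2 difference of -0.60 (standard error 0.0989) and an adjusted p of 0.209 from limma. With each library left out in turn KO_ST against CT passed the unadjusted p and the fold. Between 625 and 907 reads were still counted on the gene in each KO_ST mouse, and the gene-level files do not show on which exons they fall. In WT_ST the FPKM was 9.83, 9.47 and 10.3, above both other groups. KO_ST minus WT_ST was -1.04, with an adjusted p of 0.00883 from limma.

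The partners of FKBP51 in the receptor complex were next. Of 18 genes for corticosteroid receptors and their chaperones, all tested, 0 rose and 1 fell, which was Fkbp5 itself. The glucocorticoid receptor gene Nr3c1 had 15.7, 13.7 and 15.2 FPKM in CT and 15.9, 14.5 and 15.5 in KO_ST, a log2 difference of 0.06 (standard error 0.0646). The mineralocorticoid receptor gene Nr3c2 differed by 0.08 (standard error 0.12). Fkbp4, which encodes the co-chaperone FKBP52, differed by 0.11 (standard error 0.0787), and Hsp90aa1, an HSP90 gene, by 0.02 (standard error 0.0463). The ranges of CT and KO_ST overlapped for each of these genes.

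Genes marking microglia, the resident macrophages of the brain, formed the list with the most members that fell, of 31 lists described. Microglia depend on the CSF1 receptor, sample their surroundings through purinergic receptors such as P2RY12, and take their identity from the transcription factors PU.1 and SALL1. Of 25 microglial genes, all tested, 20 fell and 0 rose, where 2.03% of all tested genes fell. The median log2 difference of the list was -0.61, beside 0.0025 for all tested genes, and 24 of its members lay below 0. After adjustment limma and edgeR left 0 of the 25 genes, and DESeq2 3. Without adjustment and with the same fold edgeR gave 18. Fewer microglia and less RNA per microglial cell cannot be told apart in bulk tissue.

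The promoters of the microglial genes were read from RefSeq (GRCm38.p6) as the 250 bases before and 50 after the annotated start, which 17 of the 25 genes have in that table. PU.1 is known to prefer sites with the core GAGGAA. This core or its reverse complement TTCCTC occurred in 10 of the 17 promoters, in 6 of the 12 whose gene fell, and in 2984 of 11398 promoters of tested genes (26.2%). A match of 6 letters describes the sequence and is not evidence of binding. Fcrls and Laptm5, 2 of the genes that fell, are shown as examples with the match in capitals, and each holds 1. The promoters of Cx3cr1, Mpeg1 and Olfml3, which also fell, hold 0.
Fcrls (chr3:87263475-87263774, minus strand): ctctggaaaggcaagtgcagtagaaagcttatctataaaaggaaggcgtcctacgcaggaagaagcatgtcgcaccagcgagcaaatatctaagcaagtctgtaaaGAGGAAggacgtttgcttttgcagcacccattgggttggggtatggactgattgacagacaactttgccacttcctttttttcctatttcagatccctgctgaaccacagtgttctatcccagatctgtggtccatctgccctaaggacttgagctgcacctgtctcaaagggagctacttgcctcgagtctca
Laptm5 (chr4:130913066-130913365, plus strand): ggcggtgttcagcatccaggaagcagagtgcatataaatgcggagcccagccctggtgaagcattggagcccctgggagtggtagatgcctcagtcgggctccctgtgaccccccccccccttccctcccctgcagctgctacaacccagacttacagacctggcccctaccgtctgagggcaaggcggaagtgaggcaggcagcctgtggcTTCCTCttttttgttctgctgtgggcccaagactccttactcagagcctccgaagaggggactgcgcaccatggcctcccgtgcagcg

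Among the surface receptors, Cx3cr1, the receptor for the neuronal chemokine fractalkine, fell the most. Its FPKM was 15.9, 15.6 and 19.3 in CT, 5.09, 8.48 and 11.7 in KO_ST and 12.1, 11.9 and 11.6 in WT_ST. The log2 difference between KO_ST and CT was -0.97 (standard error 0.25), with an adjusted p of 0.464 from limma. CT and KO_ST did not overlap, and 1 of the 3 KO_ST mice, replicate 3, stood at the level of the WT_ST mice. P2ry12, the ADP receptor that steers microglial processes, had 17.7, 18.2 and 21.3 FPKM in CT and 9.04, 10.1 and 15.7 in KO_ST, a difference of -0.68 (standard error 0.18). Csf1r, whose product is needed for microglial survival, had 28.8, 29.1 and 34.7 FPKM in CT and 10.1, 18.1 and 27 in KO_ST, a difference of -0.80 (standard error 0.30). In each of these genes KO_ST replicate 1 was lowest and KO_ST replicate 3 nearest to CT. Gpr34, a lysophosphatidylserine receptor, fell by 0.70 and P2ry13, another purinergic receptor, by 0.64 on the log2 scale. Tmem119, a marker that separates microglia from blood-borne macrophages, had 10.8, 8.62 and 10.9 FPKM in CT and 2.84, 6.14 and 7.93 in KO_ST, a difference of -0.79 (standard error 0.28).

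The secreted and lysosomal products of microglia followed. Fcrls, an Fc receptor-like molecule, had 14.8, 13.9 and 15.9 FPKM in CT and 4.53, 8.1 and 10.4 in KO_ST, and Olfml3, an extracellular matrix protein, 10.5, 11.7 and 11.9 and 3.93, 6.48 and 8.0. Both fell without overlap of the groups, by 0.90 and 0.81 on the log2 scale. Mpeg1, which encodes the pore-forming protein perforin-2, fell by 0.84, and Cd68, a lysosomal membrane protein, by 0.61. The transcription factor genes Spi1 and Sall1 fell by 0.56 and 0.32, with Spi1 at 1.96, 2.18 and 2.09 FPKM in CT and 0.584, 1.03 and 1.63 in KO_ST. Cx3cr1, P2ry12, Gpr34, Fcrls, Olfml3 and Spi1 passed with each library left out in turn, whereas P2ry13 passed in 5 of these 6 fits, Tmem119, Cd68 and Mpeg1 in 4, Csf1r in 2 and Sall1 in 1. Each of these 6 genes was lost without CT replicate 3, and Csf1r and Sall1 also without CT replicate 1, CT replicate 2 or KO_ST replicate 2, and Sall1 without KO_ST replicate 1. The 5 members that did not pass were Trem2 (-0.50), Ctss (-0.46), Lyz2 (-0.34), Cd53 (-0.25) and Aif1 (0.06), given as log2 differences.

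The 3 KO_ST mice were far from alike in this group. The summed FPKM of the 25 genes was 288, 278 and 356 in the CT mice, 267, 239 and 223 in WT_ST and 127, 189 and 266 in KO_ST. The first KO_ST mouse was the lowest of all 9, while the third lay within the WT_ST range. As a median over the genes, the mice of KO_ST stood -0.98, -0.61 and -0.19 from the CT mean on the log2 scale, and those of WT_ST -0.17, -0.31 and -0.44. WT_ST against CT gave 10 of the 25 genes lower, beside 1.3% of all tested genes, and 0 higher, with a median of -0.25. KO_ST against WT_ST gave 3 lower, beside 1.04% of all tested genes, and 0 higher, with a median of -0.32. The plot of microglial genes by mouse shows these steps. Without KO_ST replicate 1 the count fell from 20 to 14 of 25 and the median to -0.39. Without KO_ST replicate 2 the count was 12, and without CT replicate 3 it was 9, while without KO_ST replicate 3 it was 23. With an unmoderated test of each gene 6 of the 25 passed. The median stayed below 0 in each of these settings. CT replicate 3 also stood apart from the other CT mice in genes of other cells. The summed FPKM of 12 oligodendrocyte genes was 550.3, 517 and 991 in CT, 562, 886 and 822 in WT_ST and 601, 662 and 778 in KO_ST, and that of the red blood cell genes 97.6, 216 and 955 in CT and 211, 324 and 211 in KO_ST. Without CT replicate 3 the microglial median was -0.54, and the part of tissue content in the microglial result was not tested.

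**Figure D1:**
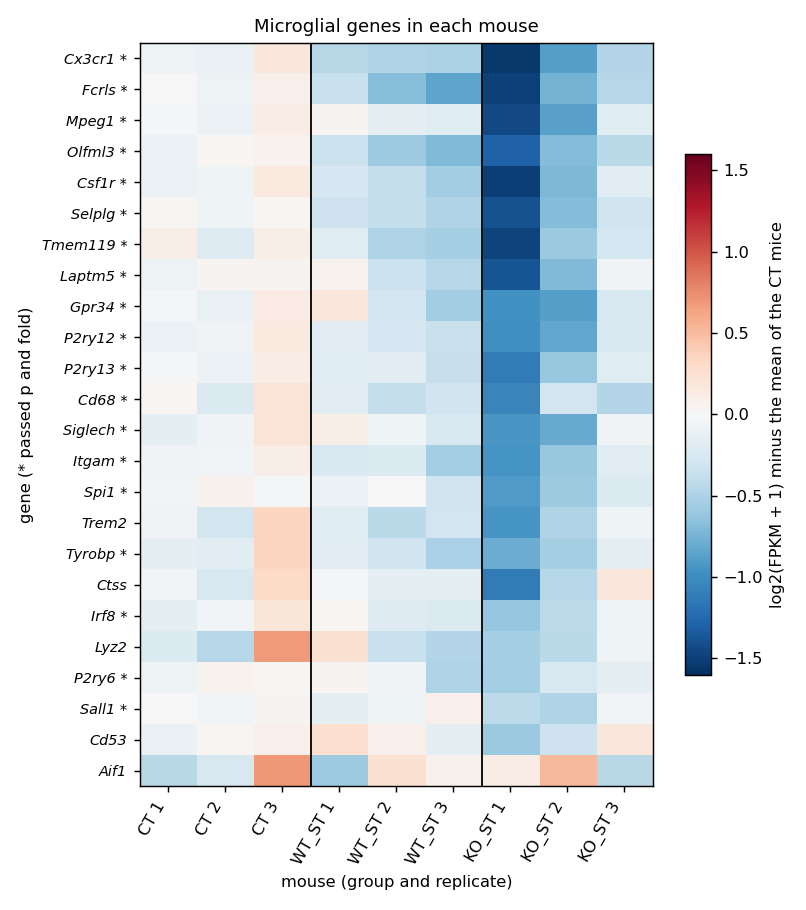
Each row is 1 of 24 of the 25 microglial genes and each column a mouse, and the colour gives log2(FPKM + 1), quantile normalized, minus the mean of the 3 CT mice. The median over the 25 genes was -0.98 in KO_ST 1, -0.61 in KO_ST 2 and -0.19 in KO_ST 3, and the WT_ST mice lay between -0.17 and -0.44.

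Complement tags synapses and debris for removal by microglia, which carry its receptors. Of 16 tested complement genes, 4 fell and 0 rose, where 2.03% of all tested genes fell and 1.56% rose. C1qa, a chain of the initiating C1q, had 21.4, 20.4 and 28 FPKM in CT and 9.54, 11.7 and 21.4 in KO_ST, so that the third KO_ST mouse reached the CT range. Its difference was -0.72 (standard error 0.26). The other members that fell were Itgam (-0.58) and Itgb2 (-0.53), the chains of complement receptor 3, and C3ar1 (-0.26), the receptor for C3a, which passed in 4 of the 6 fits that left a library out. Itgam is also on the microglial list. WT_ST against CT gave 5 complement genes lower and 1 higher, where 1.3% and 1.15% of all tested genes were, with a median of -0.09. The median in KO_ST against CT was -0.08, or -0.02 without KO_ST replicate 1. In KO_ST against WT_ST limma called 0 of 15, with 0 at an unadjusted p under 0.05. Of 46 integrin and matrix genes 8 fell and 1 rose, where 2.03% and 1.56% of all tested genes did. Itgam and Itgb2 were again among the 8. With an unmoderated test of each gene 1 integrin or matrix gene fell in place of 8, and 1 complement gene in place of 4. The collagen genes Col5a1, Col1a2, Col6a2 and Col6a1 fell by 0.36, 0.34, 0.34 and 0.32. Of the 6 fits that left a library out, Col6a1 passed in 5, Col5a1 and Col1a2 in 4 and Col6a2 in 2. Another collagen gene outside the list, Col6a4, rose from 0.175, 0.307 and 0.134 to 1.58, 0.774 and 0.80 FPKM, by 0.76 (standard error 0.16), and passed in all 6. Col6a1 had 46.6, 58.1 and 62.3 FPKM in CT and 46.3, 43.4 and 41.7 in KO_ST. Tnc, the gene for the matrix glycoprotein tenascin-C, rose from 0.635, 0.653 and 0.578 FPKM in CT to 0.977, 1.3 and 1.11 in KO_ST, by 0.42 (standard error 0.076). Without KO_ST replicate 1 the number of integrin and matrix genes that fell was 4 in place of 8, and that of complement genes 2 in place of 4. Without CT replicate 3 it was 5 for integrin and matrix genes, and without CT replicate 1 the complement genes gave 3 higher beside 4 lower. C1qa did not pass without CT replicate 3 or without either of the first 2 KO_ST mice. Of 25 genes of NF-kappaB and toll-like receptor signalling 1 fell, Tlr2 at -0.26, a receptor for bacterial lipopeptides, with a mean of 52 reads in CT and 12 in KO_ST. Of 18 tested genes of antigen presentation, 16 of them on chromosome 17, 1 fell, H2-DMb1 at -0.57, which helps to load peptides onto MHC class II, with a mean of 77 reads in CT and 24.7 in KO_ST.

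Genes of cholesterol synthesis moved the other way. When sterol falls in the endoplasmic reticulum, SREBP-2 is released and activates the synthesis enzymes together, and neurons and astrocytes rely on cholesterol made in the brain. Of 23 tested genes 10 rose and 0 fell, where 1.56% of all tested genes rose, and all 23 lay above 0. The median log2 difference was 0.25, and 15 members had KO_ST entirely above CT, as 7.96% of all tested genes did. After adjustment limma and edgeR left 0 of the 23 and DESeq2 3, and 18 of them had an unadjusted p under 0.05 in limma. The other 8 of these 18 missed the fold of 1.2.

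SREBP-2 is known to bind sterol elements that contain CACNCCAC. In the same RefSeq promoter table this core or its reverse complement GTGGNGTG occurred in 3 of the 17 promoters held for the list, in 2 of the 6 whose gene rose, and in 682 of 11398 (5.98%) of all tested genes. Insig1 and Hmgcs1, which both rose, are shown as examples with their match in capitals.
Insig1 (chr5:28071162-28071461, plus strand): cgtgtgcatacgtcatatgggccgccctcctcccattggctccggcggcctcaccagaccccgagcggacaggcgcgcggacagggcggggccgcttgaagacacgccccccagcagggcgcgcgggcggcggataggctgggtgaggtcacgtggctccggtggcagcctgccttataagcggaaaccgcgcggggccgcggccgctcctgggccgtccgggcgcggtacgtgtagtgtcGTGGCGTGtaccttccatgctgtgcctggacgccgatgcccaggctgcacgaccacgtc
Hmgcs1 (chr13:119690101-119690400, plus strand): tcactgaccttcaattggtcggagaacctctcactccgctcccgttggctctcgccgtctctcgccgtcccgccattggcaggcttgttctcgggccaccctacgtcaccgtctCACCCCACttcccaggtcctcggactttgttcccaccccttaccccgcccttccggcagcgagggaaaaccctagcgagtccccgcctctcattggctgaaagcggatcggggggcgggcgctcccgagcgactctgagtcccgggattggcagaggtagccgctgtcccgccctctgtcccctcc

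Insig1, which holds SREBP in the endoplasmic reticulum when sterol is high, had 20.8, 17 and 25 FPKM in CT, 25.5, 30.1 and 26.6 in KO_ST and 26.9, 26 and 23.6 in WT_ST, and rose by 0.40 (standard error 0.13) in KO_ST. Every KO_ST mouse stood above every CT mouse. Mvd, a decarboxylase of the mevalonate arm, had 9.21, 9.15 and 10.9 FPKM in CT and 12.1, 12.4 and 11.9 in KO_ST, a difference of 0.32 (standard error 0.0735). Hmgcs1, which encodes an early enzyme of the pathway, rose by 0.32 and the isomerase gene Idi1 by 0.40. Fdft1, which makes squalene, rose by 0.27, and the late enzymes Msmo1 and Hsd17b7 by 0.32 and 0.26. Srebf2, the gene for SREBP-2 itself, differed by 0.03 (standard error 0.0438) and did not pass.

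The cholesterol genes were higher in the stressed wild-type mice as well. WT_ST against CT gave 7 of the 23 higher, beside 1.15% of all tested genes, and 0 lower with a median of 0.24. In KO_ST against WT_ST limma called 0 of 23 in either direction, with 1 at an unadjusted p under 0.05 and a median of 0.01. Over the list the CT mice stood 0.01, -0.13 and 0.14 from their mean, the KO_ST mice 0.29, 0.24 and 0.26. CT replicate 2 was the lowest, and without it 4 of the 23 rose and the median was 0.17. Without CT replicate 3, the highest, 16 rose, and without KO_ST replicate 1 there were 6. Mvd passed with each library left out in turn, Insig1 in 5 of these 6 fits, Hmgcs1 in 4, Fdft1, Msmo1 and Hsd17b7 in 3 and Idi1 in 2. Without quantile normalization 6 rose and with an unmoderated test 5.

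Targets of the glucocorticoid receptor, which rise when the hormone binds its receptor, moved in part. Of 24 tested genes 7 rose and 2 fell, with a median of 0.17, where 1.56% of all tested genes rose and 2.03% fell. DESeq2 left 5 of the 24 after adjustment, and limma and edgeR 0, with 12 at an unadjusted p under 0.05 in limma. Tsc22d3, which encodes the anti-inflammatory protein GILZ, had 19.6, 14.5 and 17 FPKM in CT, 16.8, 17.4 and 24.2 in WT_ST and 24.3, 27.9 and 28.6 in KO_ST. All KO_ST mice stood above all CT mice, by 0.65 (standard error 0.11), with an adjusted p of 0.228 from limma. Sgk1, a kinase that raises ion transport, had 17.3, 16.4 and 20.6 FPKM in CT and 21.4, 24.2 and 30.9 in KO_ST, a difference of 0.47 (standard error 0.14). Plin4, a lipid droplet protein whose gene lies on chromosome 17, rose by 0.53, and Map3k6, a stress kinase, by 0.47. Arrdc2, Per1 and Hif3a rose by 0.43, 0.33 and 0.30. The members that fell were Cdkn1c, a cell cycle inhibitor, from 4.83, 5.85 and 4.04 to 2.56, 2.23 and 3.27 FPKM, and Fam107a, an actin regulator, by 0.33 with overlapping groups. The metallothionein genes Mt1 and Mt2, other known targets, had differences of 0.01 and 0.10 and did not pass. WT_ST against CT gave 0 of 24 higher and 2 lower, with a median of 0.03, where 1.15% and 1.3% of all tested genes were. KO_ST against WT_ST gave 4 of 23 higher and 1 lower, with a median of 0.18, where 0.952% and 1.04% of all tested genes were. As a median over the genes, the KO_ST mice stood 0.07, 0.21 and 0.21 from the CT mean and the WT_ST mice 0.0006, 0.04 and 0.06. KO_ST replicate 1 was thus close to the highest WT_ST mouse. In KO_ST against CT the count of list members that rose was 4 without KO_ST replicate 2 and 9 without KO_ST replicate 1. Tsc22d3, Sgk1, Plin4, Arrdc2 and Cdkn1c passed with each library left out in turn, Map3k6 and Per1 in 5 of these 6 fits, and Hif3a and Fam107a in 2. In the promoters of the table the palindromic core ACANNNTGT, its own reverse complement, occurred in 3 of 21 members and in 4.0% of all tested genes. Of the 8 members with a promoter whose gene rose or fell, 1 held it.

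**Figure D2:**
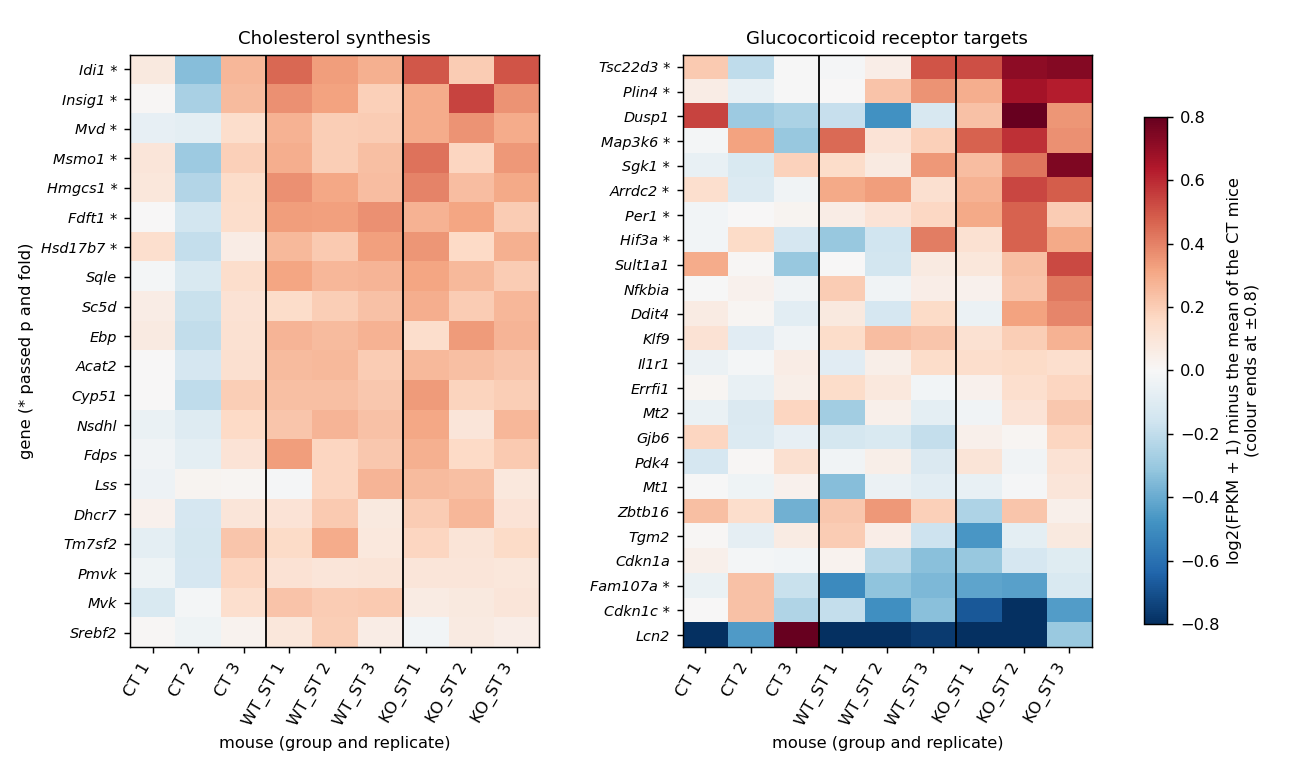
Rows are 20 of the 23 genes of cholesterol synthesis (left) and glucocorticoid receptor targets (right), columns are mice, and the colour gives log2(FPKM + 1), quantile normalized, minus the CT mean. The median of the cholesterol genes lies between 0.21 and 0.29 in the 6 stressed mice, and Tsc22d3 and Per1 are highest in KO_ST.

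Some clock genes are also targets of glucocorticoids. Of 18 clock genes 3 rose and 1 fell, where 1.56% and 2.03% of all tested genes did. The median was 0.17, or 0.09 without CT replicate 2. WT_ST against CT gave 2 clock genes higher, beside 1.15% of all tested genes, and 0 lower with a median of 0.14. KO_ST against WT_ST gave 1 higher, beside 0.952% of all tested genes, and 0 lower with a median of -0.01. Ciart, a repressor of the clock, had 12.3, 8.21 and 9.35 FPKM in CT and 13.4, 15.6 and 14.2 in KO_ST, and Per1 17.1, 17.3 and 17.7 and 21.5, 24.1 and 20.05. Both groups of 3 stood apart in each gene, with differences of 0.54 (standard error 0.14) and 0.33 (standard error 0.0722). Per2 rose by 0.36 (standard error 0.11). Arntl, which encodes the activator BMAL1, fell from 13.8, 15.8 and 14.3 to 10.8, 12.1 and 12.3 FPKM, by 0.28 (standard error 0.0768). Per1 did not pass without KO_ST replicate 2, nor Per2 without KO_ST replicate 1 or replicate 2, nor Arntl without CT replicate 2 or KO_ST replicate 1. The time of day at which each mouse was killed was not given in the sources used here.

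The tissue was checked against its other cell types. The excitatory markers Camk2a and Nrgn and the interneuron markers Sst and Cck were present at high levels in every mouse, with Camk2a between 699 and 806 FPKM and Sst between 236 and 309.9 FPKM over the 6 mice. Over all tested genes 1.56% rose and 2.03% fell, to be read beside the counts below. Of 12 excitatory genes 1 rose, Bcl11b at 0.39, a transcription factor of deep-layer projection neurons. Of 14 inhibitory genes 1 rose, Pvalb, the calcium buffer of fast-spiking interneurons, from 17.2, 13 and 14.2 to 18.2, 18.1 and 19.5 FPKM, a call lost without CT replicate 2. Of 11 tested striatal genes 2 rose, Tac1 (0.44), the substance P precursor, and Drd2 (0.32), a dopamine receptor. The summed FPKM of the striatal genes was 108, 94.2 and 116 in CT, 107, 133 and 138 in WT_ST and 124, 103 and 123 in KO_ST. The median log2 difference of the tested striatal genes was 0.07 in KO_ST against CT, 0.30 in WT_ST against CT with 3 higher, and -0.19 in KO_ST against WT_ST with 1 higher and 2 lower, and Drd2 did not pass without KO_ST replicate 3. The striatal level thus varied between mice, and the share of striatal tissue in the Drd2 and Tac1 results was not tested. Of 14 astrocyte genes 1 fell, Fabp7, a fatty acid carrier of radial glia and astrocytes. It had 21.9, 27.8 and 24.5 FPKM in CT, 18.6, 16.5 and 14.9 in WT_ST and 15.5, 13.4 and 17.3 in KO_ST, a difference of -0.63 (standard error 0.11) between KO_ST and CT. Of 8 oligodendrocyte precursor genes 1 fell, Gpr17 at -0.40. Of 14 endothelial genes 2 fell, Kdr (-0.47), the main VEGF receptor, and Cldn5 (-0.39), the tight junction claudin of the blood-brain barrier. Of 9 fibroblast genes 1 fell, the collagen gene Col1a2. Tac1, Fabp7, Kdr and Cldn5 passed with each library left out in turn, whereas Bcl11b was lost without CT replicates 2 or 3 or KO_ST replicates 1 or 2, and Gpr17 without CT replicate 3 or any 1 of the KO_ST mice.

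Other lists had few or no members that passed, where 1.56% of all tested genes rose and 2.03% fell. For 12 oligodendrocyte, 10 mural and 7 tested red blood cell genes limma gave 0 calls and 0 genes with an unadjusted p under 0.05, and edgeR's unadjusted calls were 0, 0 and 2. CT replicate 3 was the highest CT mouse for the oligodendrocyte and the red blood cell genes, as given with the microglial genes. Only 1 of 6 choroid plexus genes reached the read minimum, and it did not pass. Limma called 0 of 30 heat shock and unfolded protein response genes, 0 of 35 glutamate receptor genes and 0 of 15 GABA receptor genes. The numbers with an unadjusted p under 0.05 were 1, 1 and 5, and edgeR with the same fold also called 0, 0 and 0. Of 24 tested immediate early genes 1 rose, Dusp5 at 0.41, with overlapping groups. Of 32 Notch genes Numb rose and Hes5, a Notch target, fell, the latter from 7.8, 11.3 and 10.03 to 6.58, 5.71 and 6.13 FPKM. Adra1b, an alpha-1 adrenergic receptor gene, rose by 0.40 (standard error 0.0837) and shared the list of 20 monoamine receptors with Drd2, the other member that rose. Among 52 genes of cadherins and synaptic adhesion 2 rose, among them Cdh6 (0.28), and 1 fell, Cadm1 (-0.42). Among 19 neurotrophin genes Ntf3 fell by 0.35. The list of 29 stress neuropeptide genes had 1 member that rose, Tac1. Hes5 and Adra1b passed with each library left out in turn, Cadm1 in 4 of these 6 fits, Cdh6 in 3, and Ntf3 and Dusp5 in 2. Ntf3 was lost without CT replicates 2 or 3 or KO_ST replicates 2 or 3.

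Genes for ribosomal proteins were mostly a little lower than in CT, few of them by the criterion. Of 81 tested genes for cytosolic ribosomal proteins, 71 lay below 0 (49.0% of all tested genes did) and 37 had KO_ST entirely below CT (7.88% of all tested genes did). By the criterion 5 fell and 1 rose, where 2.03% and 1.56% of all tested genes did. Rps7 had 136, 149 and 135 FPKM in CT and 118, 99.6 and 107 in KO_ST, a difference of -0.36 (standard error 0.0754). Rpl35, Rps2 and Rpl29 fell by 0.29, 0.28 and 0.27, and each of these did not pass without CT replicate 2. The member that rose, Rps27, and its copy Rps27rt are described with the gene copies. The median of the list was -0.10 in KO_ST against CT and -0.08 in WT_ST against CT. Of 77 respiratory chain genes 59 lay above 0, with a median of 0.06, and 1 rose, the heart and muscle type subunit gene Cox6a2 at 0.33 with overlapping groups, which passed in 2 of the 6 fits that left a library out. Without quantile normalization the median of all tested genes was -0.02, in place of 0.0025.

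**Figure D3:**
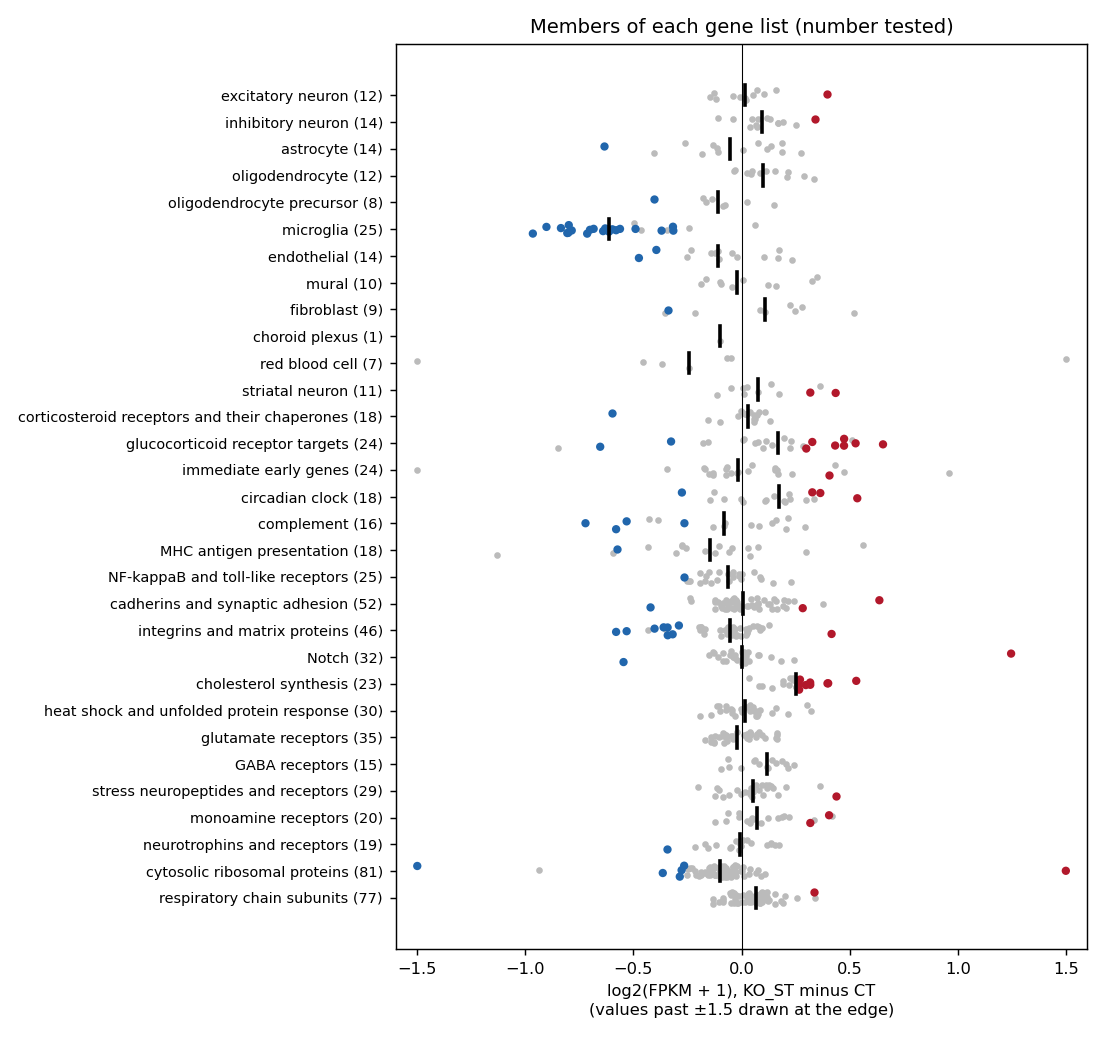
Each dot is a tested member of a gene list, placed by its log2 difference of KO_ST against CT. Red and blue dots passed p and fold, grey dots did not, and the black bar is the median of the list. The microglial list (median -0.61) lies to the left and the cholesterol list (0.25) to the right, and the other medians, apart from that of the red blood cell genes (-0.24), are within 0.2 of 0.

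The most abundant genes that changed without overlap of the groups were modest in size. Cst3, which encodes the secreted protease inhibitor cystatin C, had 882, 889 and 890.3 FPKM in CT, 674, 683 and 688 in WT_ST and 661, 712 and 744 in KO_ST. It fell by 0.37 (standard error 0.0646) in KO_ST, with an adjusted p of 0.241 from limma, and both stressed groups lay below all CT mice. Clu, the gene for the chaperone clusterin, fell by 0.29 from 338, 388 and 363 to 286, 313 and 304 FPKM. Ddn, a dendritic protein, fell by 0.27, and Pcp4, a calmodulin regulator, rose by 0.29. Eno1, a glycolytic enolase, had 569, 462 and 594 FPKM in CT, 589.7, 556 and 559.9 in WT_ST and 383, 369.9 and 451 in KO_ST, and fell by 0.45 (standard error 0.11). Cst3 and Eno1 passed with each library left out in turn, Clu in 5 of these 6 fits, Ddn in 4 and Pcp4 in 3.

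Away from chromosome 17, Numb had the largest rise among genes whose groups did not overlap. Numb (chr12:83794034-83921942) encodes a regulator that restrains Notch. Its FPKM was 8.06, 7.93 and 8.4 in CT and 19.98, 19.1 and 22 in KO_ST, a difference of 1.25 (standard error 0.0623) with an adjusted p of 0.00108 from limma. In WT_ST it was 22.7, 20.7 and 7.72, so that 2 stressed wild-type mice stood with KO_ST and 1 with CT.

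Several of the other large rises also had mice at either a low or a high level. Sumo3, a small ubiquitin-like modifier, had 49.9, 16.2 and 15.2 FPKM in CT, 18, 16.8 and 18.7 in WT_ST and 52, 52.4 and 50.8 in KO_ST. 1 of the CT mice stood almost at the KO_ST level and all WT_ST mice at the lower level. Tspan14, a tetraspanin, had 6.64, 6.14 and 6.69 FPKM in CT and 6.82, 19.8 and 19.4 in KO_ST, with 1 KO_ST mouse at the CT level, and 20.4, 6.71 and 19.8 in WT_ST. Dnajb4, an HSP40 co-chaperone, had 11.1, 10.7 and 10.6 FPKM in CT and 11.1, 24.3 and 29.1 in KO_ST. Prdx6, a peroxiredoxin, had 24.1, 23.7 and 27.6 FPKM in CT and 48.7, 49.6 and 30.4 in KO_ST. Sumo3 passed the criterion in 1 of the 6 fits that left a library out, that without CT replicate 1, as did Dnajb4 in that without KO_ST replicate 1, and Tspan14 did not pass without CT replicate 2, KO_ST replicate 2 or KO_ST replicate 3. Their log2 differences were 1.13 (Sumo3), 1.02 (Tspan14), 0.85 (Dnajb4) and 0.72 (Prdx6). Limk1, a kinase that regulates actin through cofilin, was graded instead, with 15.4, 13.4 and 17.8 FPKM in CT, 24, 18.5 and 22.5 in WT_ST and 23.1, 26.7 and 24.4 in KO_ST and a difference of 0.67 (standard error 0.10). Among the 10 largest falls outside chromosome 17 without overlap of the groups, 7 were in microglial genes. Grp, the gene for gastrin-releasing peptide, also had a place, with 12.5, 18.9 and 10.6 FPKM in CT and 5.8, 8.54 and 8.01 in KO_ST.

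**Figure D4:**
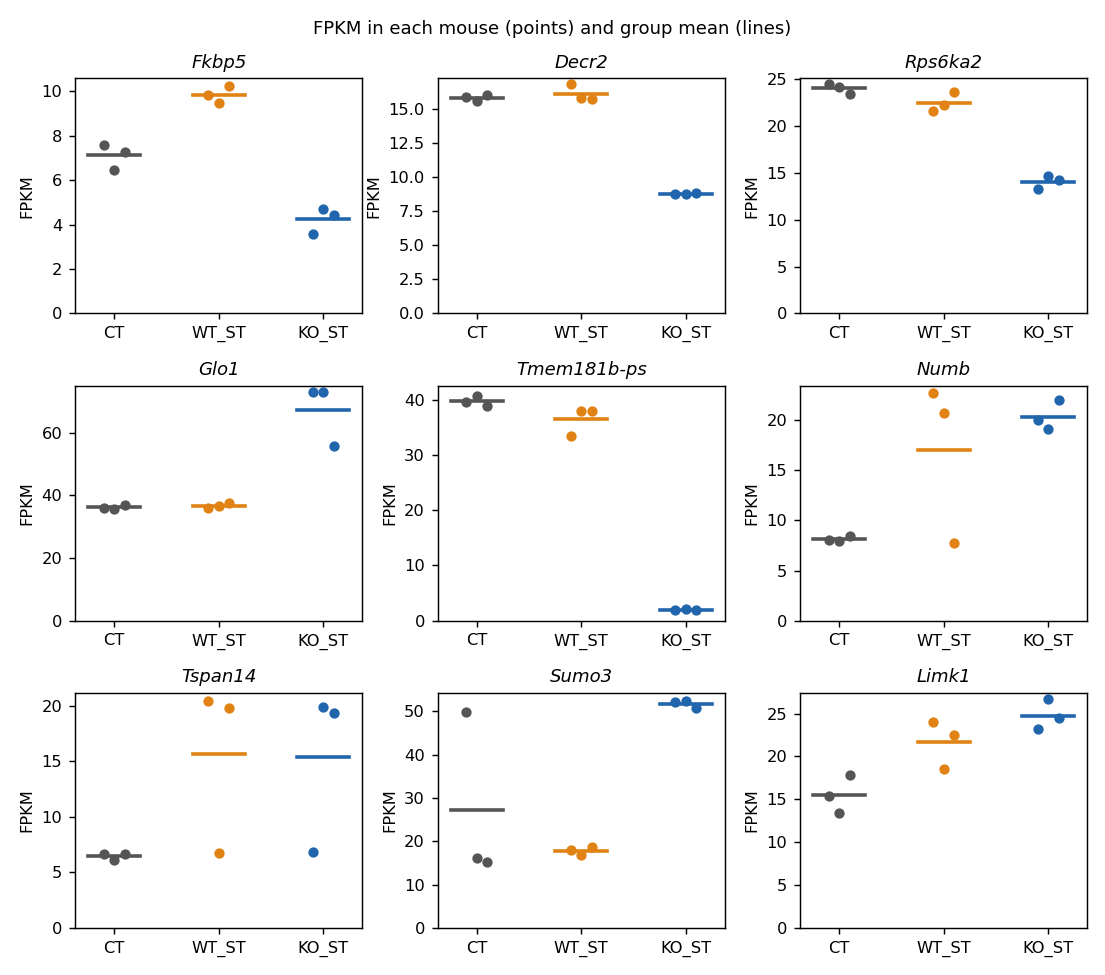
FPKM of 9 genes in each mouse (points) with group means (lines), each axis starting at 0. Fkbp5, Decr2, Rps6ka2 and Tmem181b-ps are low in every KO_ST mouse, Glo1 is high, and Numb, Tspan14 and Sumo3 take either a low or a high level in single mice, with all KO_ST mice high except KO_ST 1 for Tspan14. Limk1 is graded between the groups.

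Genes on chromosome 17, which carries Fkbp5, were treated apart. Of 700 tested genes on this chromosome 45 changed (6.43%), 15 up and 30 down. On the other chromosomes 471 of 13678 changed (3.44%), and over the 19 others with at least 100 tested genes the share ran from 2.43% to 4.24%. Of the 9 genes that remained after adjustment 6 were on chromosome 17. Close to the centromere, between 3 and 10 Mb and far from Fkbp5 itself, 13 of 37 genes changed (35.1%), of which Ccr6 and Dynlt1f had a mean under 30 reads in 1 of the groups. Between 10 and 25 Mb 3 of 125 changed, between 25 and 35 Mb, the stretch around Fkbp5, 18 of 213 (8.45%), and beyond 35 Mb 11 of 325 (3.38%). Of the 18, Pi16, Pdia2 and Ip6k3 had a mean under 30 reads in CT, and Gpsm3 and H2-DMb1 in KO_ST. Pi16, with a mean of 11.3 reads in CT and 48.7 in KO_ST, reached the minimum only through KO_ST. Among the genes of these stretches that were also tested in WT_ST against CT, limma called 0 of 35, 2 of 124, 4 of 210 and 4 of 325, with 2 of the 35 at an unadjusted p under 0.05. In KO_ST against WT_ST it called 12 of 36, 0 of 124, 15 of 211 and 5 of 324, with 5 of the 124 at an unadjusted p under 0.05. All mutant mice are of 1 line, so what came with the line around the targeted gene and what followed from the loss of Fkbp5 cannot be told apart here. Without KO_ST replicate 3 the number of changed genes on the chromosome was 69.

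**Figure D5:**
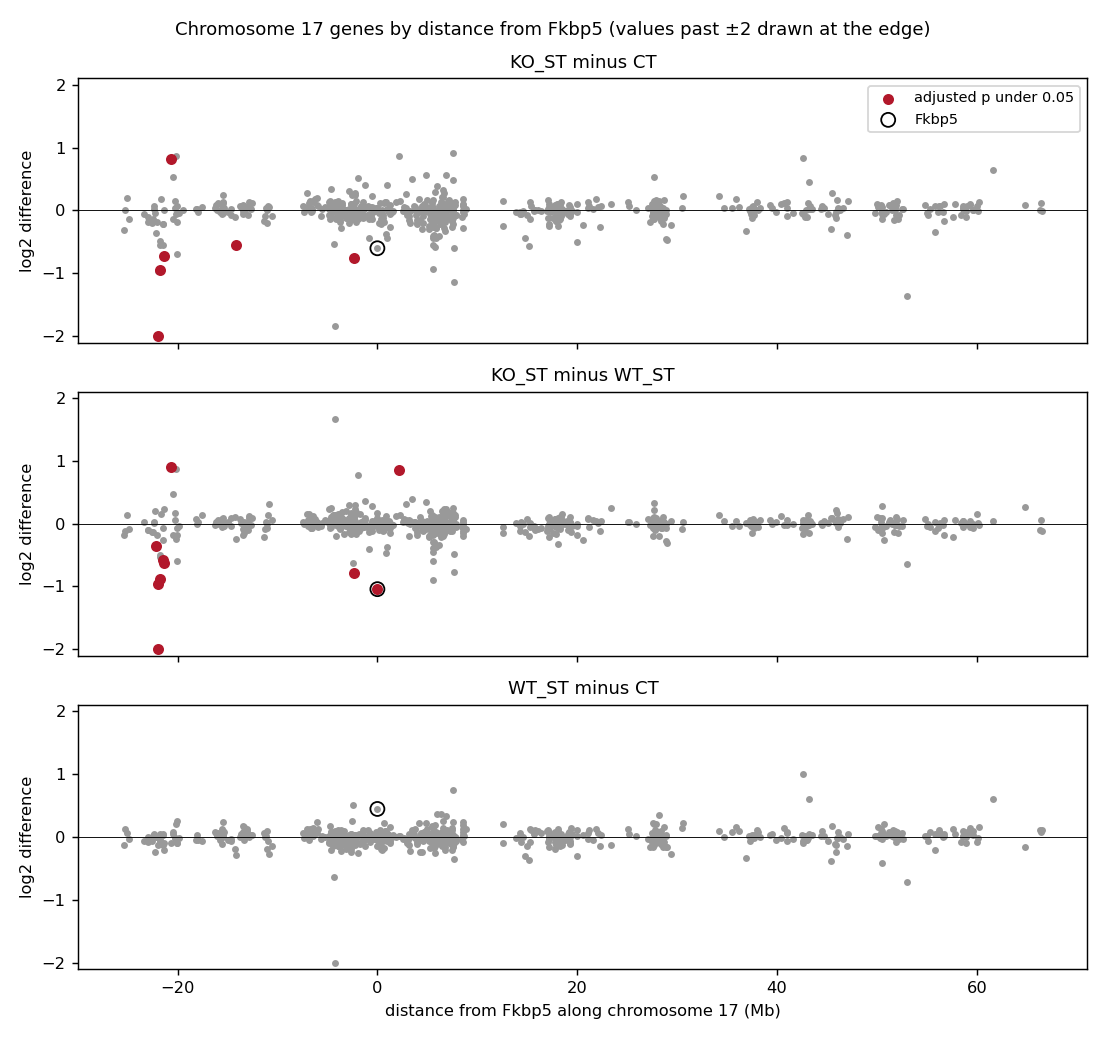
Each point is a tested gene on chromosome 17, placed by its distance in Mb from Fkbp5 (circled) and its log2 difference in 3 comparisons. Red points passed an adjusted p under 0.05 in limma, 6 for KO_ST against CT and 10 for KO_ST against WT_ST. In WT_ST against CT 0 of the 35 centromeric genes tested in that comparison passed p and fold.

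In the centromeric stretch, Tmem181b-ps (chr17:6439002-6450994), a transcribed pseudogene of the transmembrane protein gene Tmem181a, fell the most of all genes. It had 39.7, 40.6 and 38.8 FPKM in CT, 33.4, 37.9 and 37.9 in WT_ST and 1.86, 2.1 and 2.0 in KO_ST, a difference of -3.76 (standard error 0.0575) with an adjusted p of 4.71e-07 from limma. Tmem181c-ps (chr17:6610103-6620925) fell from 4.68, 5.21 and 5.06 to 1.96, 2.05 and 2.09 FPKM. Because near-identical copies share reads, the 3 members were also summed. The sum was 313, 324 and 310.3 RPM (reads scaled to the total of the library) in CT, 283, 305 and 308 in WT_ST and 98, 97.1 and 97 in KO_ST, so that KO_ST held 30.8% of the CT mean and WT_ST 94.6%. The Dynlt1 genes, which encode a dynein light chain, lie beside them, and Dynlt1b (chr17:6429530-6440500) overlaps Tmem181b-ps. Dynlt1b had 6.94, 6.94 and 8.49 FPKM in CT and 2.7, 3.95 and 3.16 in KO_ST, and the sum of the 4 Dynlt1 genes in KO_ST was 66.2% of that in CT. For the 2 Rsph3 genes, which encode a radial spoke protein of cilia, it was 77.4%.

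Other genes of the same stretch are given with their values. Rps6ka2 (chr17:7088971-7303315), the kinase RSK3 of the MAPK pathway, had 24.5, 24.2 and 23.4 FPKM in CT, 21.6, 22.2 and 23.6 in WT_ST and 13.3, 14.6 and 14.3 in KO_ST. It fell by 0.72 (standard error 0.0563), with an adjusted p of 0.0102 from limma. Fndc1 (chr17:7738569-7827340), a fibronectin type III domain protein, rose from 0.602, 0.716 and 0.633 to 1.73, 2.11 and 1.67 FPKM, by 0.81 (standard error 0.0829) with an adjusted p of 0.0338. Ccr6 (chr17:8236041-8258519), a chemokine receptor of lymphocytes, had 0 reads in each CT and each WT_ST mouse and 32, 61 and 92 reads in the KO_ST mice. With 3 counts per CT library as the floor it was at least 23.155-fold higher in KO_ST. Its mean over the 6 mice was 30.8 reads, so it reached the minimum of 30 only through the KO_ST mice and had to differ. It is 1 of the 13 changed genes next to the centromere, and its call is a description. Smoc2 (chr17:14279490-14404790), a calcium-binding matrix protein between this stretch and Fkbp5, had 16.9, 17.5 and 18.5 FPKM in CT, 15.9, 11.4 and 15.7 in WT_ST and 11.4, 11.5 and 11.8 in KO_ST, and an adjusted p of 0.0285.

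Nearer to Fkbp5, Decr2 (chr17:26081208-26090322), a peroxisomal reductase that completes the oxidation of unsaturated fatty acids, differed by a like amount in all 3 KO_ST mice. Its FPKM was 15.9, 15.6 and 16 in CT, 16.8, 15.8 and 15.7 in WT_ST and 8.75, 8.74 and 8.86 in KO_ST. The ranges of both wild-type groups overlapped, while KO_ST was lower by 0.76 (standard error 0.0481), with an adjusted p of 0.00364 from limma. Glo1 (chr17:30592861-30612659), the glyoxalase that removes methylglyoxal, rose from 36, 35.7 and 37 to 72.8, 73.1 and 55.7 FPKM, with 36.1, 36.7 and 37.4 in WT_ST. Its difference was 0.86 (standard error 0.10) with an adjusted p of 0.0814, which did not pass the adjusted threshold. KO_ST replicate 3 was the lowest of its group in Glo1 and still above all wild-type mice.

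Gene copies on other chromosomes had to be read together as well. The ribosomal gene Rps27 and its copy Rps27rt showed opposite differences. Rps27 had 2.52, 216 and 2.21 FPKM in CT and 171, 149.8 and 165 in KO_ST, and Rps27rt 179.6, 1.83 and 208 and 2.54, 3.27 and 2.63. Their sum was 64.9, 77.9 and 74.6 RPM in CT and 61.5, 54.7 and 60.3 in KO_ST, so the large opposite differences of the single genes (3.61 and -3.62) did not appear in the sum, and CT replicate 2 had the values of the KO_ST mice. Neither gene passed in more than 1 of the 6 fits that left a library out. The sum of Eno1 and its copy Eno1b in KO_ST was 87.1% of that in CT, against 74.1% for Eno1 alone.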

How the data were processed

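RNA of the medial prefrontal cortex was sequenced by the authors with a stranded mRNA kit as paired-end reads on an Illumina instrument. The submitters' notes name HISAT2 2.1.0, Bowtie2 2.3.4.1 and StringTie 1.3.4d with mm10 (GRCm38). For each mouse the authors deposited the read count and the FPKM of 24532 genes. Samples were grouped by their labels. The analysis used log2(FPKM + 1), with 1 as the pseudocount, quantile normalized over all 9 libraries and compared between CT and KO_ST with limma 3.58.1 in R 4.3.3 (moderated test with a mean-variance trend, 2-sided), for genes with a mean of at least 30 reads over the 6 mice. Adjusted p-values are Benjamini-Hochberg values over all tested genes, from limma unless edgeR 4.0.16 or DESeq2 1.42.0, which were run on the read counts, is named. Non-overlap was judged on the normalized values.

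Genes are named by rule: Fkbp5, genes with an adjusted p under 0.05, the 10 largest changes without overlap in each direction outside chromosome 17, the 10 largest on it and the 6 most abundant, up to 4 called members of each list, and the 2 most abundant members of each cell type list. Others, among them further list members and gene copies, were chosen after their values were seen. The comparison and the 31 gene lists were chosen with earlier results of these data known. Gene positions and promoters come from RefSeq (GRCm38.p6), which matched 24462 genes. Pearson correlations between the 6 libraries were 0.987 to 0.993, and read counts of any pair differed by more than sampling noise (chi-square of at least 20.3 for each degree of freedom), so no library was a repeat of another. The labels do not tie replicate numbers to litters or days. Alternatives covered the pseudocount, scaling, filters, test, samples in the fit, a replicate block and leaving out each mouse. Some genes that the rule selects are not reported here by name and stay in the counts. The methods were tested on simulated data. The limma p-values set a difference between groups against the spread between these mice, moderated across genes.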

Additional observations from a re-analysis of the deposited data

Results flagged for a closer look

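For 11 of the named genes the comparison of KO_ST with WT_ST, which tests whether the shift from the shared CT mice differed between the stressed genotypes, had an adjusted p under 0.05 in limma, where 20 of 14282 genes tested in that comparison did (0.14%). Each is given as the log2 difference KO_ST minus WT_ST. On chromosome 17 they were Tmem181b-ps (-3.63), Fkbp5 (-1.04), Dynlt1b (-0.95), Tmem181c-ps (-0.89), Decr2 (-0.79), Rps6ka2 (-0.62), Glo1 (0.85) and Fndc1 (0.90). Of the genes named after their values were seen, Rsph3b (-0.58) and Tmem181a (-0.36), on the same chromosome, also passed. Elsewhere they were Sumo3 (1.49), Rps27 (5.78) and Rps27rt (-5.46). The sum of the last 2, which are near-identical copies, is given above. No gene of the microglial, cholesterol or glucocorticoid target lists was among them.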

How the results depend on the processing

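The number of genes that passed p and fold was 246 among genes whose mean FPKM reached 5 and 251 when each gene was tested without moderation, in place of 516, and ran from 418 to 744 when each library was left out. On chromosome 17 it was 22 and 28 under these settings in place of 45, and 37 to 69 with a library left out. The number at an adjusted p under 0.05, 9, was 2 with the unmoderated test, 116 with DESeq2, 14 with all 9 libraries in one fit, and 7 to 11 with a library left out. With a replicate block the counts were 566 genes, 53 on chromosome 17 and 2 after adjustment. Of the 9 adjusted genes 4 to 6 remained with a library left out, 2 with the unmoderated test or the block and 6 to 9 otherwise. Of 137 called genes examined singly 66 passed in every fit with a library left out that tested them. Among the 66, Ccr6 and Pi16 were tested in only 4 such fits, since they missed the read minimum in the others. In single fits 22 (without CT replicate 1) to 44 (without KO_ST replicate 2) of the 137 were lost. The deviations of same-numbered mice had correlations of -0.05, 0.23 and 0.16. Differently numbered mice were not compared in this way, so these values cannot show whether a number stands for a shared batch. The numbers were taken as names. Fkbp5 kept its direction and its call throughout, from -0.67 to -0.51 with a library left out, -0.70 with a pseudocount of 0.1 and -0.72 with edgeR. In 6 cases a list median changed sign and moved by more than the spread between the KO_ST mice, and smaller moves across 0 are not listed. With a library left out the median of oligodendrocyte genes ran from -0.0585 (without CT replicate 2) to 0.35, that of red blood cell genes from -0.72 to 0.60 (without CT replicate 3) and that of immediate early genes ran from -0.0567 to 0.14 (without CT replicate 1), with 0.06 without KO_ST replicate 3. It was 0.0301 for NF-kappaB genes under the higher FPKM minimum and -0.0109 for adhesion genes without quantile normalization. The causes were not tested, except that the FPKM minimum tests fewer genes. With 3 mice a group, a p that misses the threshold does not show that groups are alike.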

Other observations

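Some genes outside the lists are given here singly. They were picked after their values were seen, so no count or statement about a group is drawn from them. Each passed p and fold in limma, also with each library left out in turn. Slc2a5, a fructose transporter, had 1.95, 1.29 and 2.41 FPKM in CT and 0.373, 0.431 and 1.31 in KO_ST. Cd33, a sialic acid receptor of myeloid cells, had 2.41, 2.57 and 2.03 FPKM in CT and 0.927, 1.2 and 1.45 in KO_ST. Csf3r, the receptor for granulocyte colony-stimulating factor, had 2.07, 1.9 and 2.01 and 0.828, 0.935 and 1.2. Il10ra, the receptor for interleukin-10, had 1.93, 1.93 and 1.93 and 0.869, 0.897 and 1.47. Sox21, a transcription factor gene, had 2.2, 3.05 and 2.97 FPKM in CT and 1.95, 1.16 and 1.83 in KO_ST. The sodium channel gene Scn1a had 16, 12.6 and 12 FPKM in CT and 17.2, 17.2 and 17.4 in KO_ST, and Kcnab3, a potassium channel subunit gene, 11.7, 8.39 and 10.5 and 12.4, 13.1 and 14.2. In WT_ST the log2 differences from CT were 0.14 for Scn1a and 0.39 for Kcnab3.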
